A study of Mus musculus with 4 samples.

Results

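The step from DN3 thymocytes to naive CD4 T cells was followed in mice that lack Scd1, by setting the accessible regions of the 2 Scd1-deficient libraries against each other. A region is 1 peak of the authors' list for a library, on chromosomes 1 to 19 and X of the mouse build mm10. The Scd1-deficient lists held 76437 regions in DN3 cells and 51297 in naive CD4 cells, of 251124 regions in the 4 libraries of the series. A region was called DN3-only or naive-only when no base of it overlapped a region of the other cell type, and matched otherwise. The littermate controls, whose step rests on 2 other libraries, held 76814 and 46576 regions and served to ask which differences between the cell types were also present with the control genotype.

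Open chromatin was measured by ATAC-seq, in which the Tn5 transposase cuts and tags accessible DNA, in untreated primary cells. There were 4 groups of 1 library, namely Scd1-deficient and littermate control DN3 thymocytes and Scd1-deficient and littermate control naive CD4 T cells of the spleen. DN3 cells were depleted of lineage-positive and CD4-positive cells with beads and then flow sorted as lineage-negative, CD4-, CD8-, CD44- and CD25+, while the naive cells came from a magnetic bead kit without a flow sort. Control titles carry the letters HZ without an explanation. The sources used here do not give the age, sex or number of mice behind a library, the part of Scd1 that was deleted, or the cells in which it was deleted. With 1 library a group there is no test and no replicate check, and the Wilson 95% intervals given below cover counting error only. In bulk libraries, fewer open cells and less opening in each cell cannot be told apart. The cell types also differ in tissue and in how they were purified, which cannot be told apart from the developmental step.

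Scd1 is a stearoyl-CoA desaturase of the endoplasmic reticulum, which turns saturated into monounsaturated fatty acids. DN3 thymocytes rearrange the T cell receptor beta locus with the Rag recombinase and are held to the T lineage by Notch signals. Cells with a working beta chain pair it with the pre-TCR alpha chain, proliferate, pass through the CD4+CD8+ stage and, if they are positively selected into the CD4 lineage, leave the thymus as naive CD4 cells that recirculate through lymphoid organs under Ccr7 and S1pr1. In this process the recombinase, pre-TCR and progenitor loci are known to close and those for recirculation and quiescence to open.

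The promoters of Ptcra, Rag1, Gimap4 and Il2 show this step at single genes. Each lay under a region of one cell type that had no counterpart in the other, in both genotypes. The 250 bases before the RefSeq start site (table for GRCm38.p6, the assembly of mm10) are given from 5′ to 3′ on the strand of the gene. Capitals mark matches, on either strand, to the RUNX letters TGTGGT, the E-box letters CAGCTG and the CCAAT box. Ptcra, which encodes the pre-TCR alpha chain, lies on the minus strand with its window at chr17:46763713-46763962. Rag1, a subunit of the recombinase, lies on the minus strand at chr2:101649533-101649782. Both were shown because only DN3 cells had a region there. Gimap4, a GTPase of lymphocyte survival, lies on the plus strand at chr6:48684328-48684577, and Il2, the T cell growth factor, on the minus strand at chr3:37125955-37126204. Only naive CD4 cells had a region at these 2.
Ptcra: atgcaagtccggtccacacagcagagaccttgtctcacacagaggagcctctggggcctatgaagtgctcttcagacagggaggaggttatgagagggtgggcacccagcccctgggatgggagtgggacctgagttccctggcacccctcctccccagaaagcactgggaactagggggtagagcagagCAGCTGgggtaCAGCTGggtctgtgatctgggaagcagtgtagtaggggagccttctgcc
Rag1: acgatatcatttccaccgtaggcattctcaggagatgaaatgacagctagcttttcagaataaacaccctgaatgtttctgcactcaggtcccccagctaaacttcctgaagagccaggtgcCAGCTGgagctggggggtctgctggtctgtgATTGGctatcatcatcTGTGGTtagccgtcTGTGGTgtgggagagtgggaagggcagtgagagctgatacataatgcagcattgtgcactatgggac
Gimap4: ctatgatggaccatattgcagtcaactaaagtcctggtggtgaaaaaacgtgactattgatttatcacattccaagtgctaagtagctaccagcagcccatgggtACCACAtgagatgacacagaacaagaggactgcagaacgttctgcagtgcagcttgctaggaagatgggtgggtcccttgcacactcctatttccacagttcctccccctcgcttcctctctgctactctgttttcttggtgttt
Il2: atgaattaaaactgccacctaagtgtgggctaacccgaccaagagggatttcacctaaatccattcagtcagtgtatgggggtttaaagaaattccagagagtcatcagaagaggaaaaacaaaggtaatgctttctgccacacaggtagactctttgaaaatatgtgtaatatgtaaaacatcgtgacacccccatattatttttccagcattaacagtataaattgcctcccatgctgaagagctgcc
The Ptcra window held 2 E-box matches, the Rag1 window 2 RUNX matches, 1 E-box and 1 CCAAT match, and the Gimap4 window 1 RUNX match. The Il2 window held none of these letters. Over the Ptcra window the highest point of the DN3 region was covered by 221 fragments without Scd1 and 216 in the control. Over Rag1 it was covered by 139 and 114. The naive region over Gimap4 reached 121 and 142 fragments and that over Il2 59 and 71, in Scd1-deficient and control cells. These fragment counts were recovered from the deposited statistics and are not scaled for depth.

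Of all 21045 RefSeq windows of 300 bases, from 250 before to 50 after a start, 1428 lay under a region in Scd1-deficient DN3 cells alone and 134 in naive CD4 cells alone. The same call was made in the controls at 1249 and 81 of them, which is 87.5% and 60.4%. Median GC content was 60.7% in the DN3-only and 52.3% in the naive-only windows, against 62% where both cell types had a region and 47.7% where neither had one. The ETS letters CCGGAAG stood in 2.80% of the DN3-only windows, 8.21% of the naive-only windows and 19.4% of the windows open in both, against 11.7% of all. RUNX letters stood in 13.0%, 17.9% and 11.6%, against 14.7% of all windows. E-box letters stood in 20.6%, 20.1% and 14.1%, against 15.7% of all, and the CCAAT letters in 30.8%, 26.9% and 37.9%, against 38.5%. The SP/KLF letters GGGCGG stood in 54.4%, 26.9% and 68.6%, against 46.7% of all, and the TCF/LEF letters ATCAAAG in 2.31%, 3.73% and 2.34%, against 3.25%. A match is a description of the sequence and not a measured site.

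DN3 cells without Scd1 had many more regions of their own than naive cells did. Of the 76437 DN3 regions, 33125 were DN3-only, 43.3% (interval 43.0% to 43.7%), and of the 51297 naive regions, 8216 were naive-only, 16% (15.7% to 16.3%). The DN3 list was also the longer one, and with every list kept to its 46576 strongest regions the shares were 27.8% and 27.7%. Matched regions numbered 43312 in the DN3 and 43081 in the naive list, so matching was nearly one-to-one. The excess of DN3-only regions therefore follows the lengths of the lists. Lists of equal length give nearly equal shares by construction, so neither result tests for an excess. In controls 47.2% of DN3 and 15% of naive regions were one-sided. One-sided regions were narrower and weaker than matched ones. Their median width was 455 bp in DN3 and 427 bp in naive cells, against 839 and 811 bp for matched regions, and their median −log10 q was 13.6 and 11.6, against 58.9 and 53.5.

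One-sided regions lay away from gene ends. Some part of the region lay within 1 kb of an annotated end of a protein-coding gene for 8.88% of DN3-only and 4.76% of naive-only regions. The share was 28.8% for matched regions of either list, which were wider and so reach a gene end more easily. Another 51.5% of DN3-only and 57.4% of naive-only regions had their summit inside a gene. In the controls the shares at gene ends were 9.42% and 4.48%.

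Most of these differences between the cell types were present in the controls too. Among the 33125 DN3-only regions of Scd1-deficient mice, 26026 met a control DN3 region and no control naive region, 78.6% (78.1% to 79.0%). Among the 8216 naive-only regions, 5008 met a control naive region alone, 61.0% (59.9% to 62.0%). For comparison, 8.40% of the matched DN3 regions and 2.22% of the matched naive regions were one-sided in that way in controls. Of the remaining DN3-only regions, 5673 met no control region in either cell type, 1217 met control regions in both, and 209 met a naive region alone. Of the remaining naive-only regions, 1953 met none, 906 met both and 349 met a DN3 region alone.

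**Figure D1:**
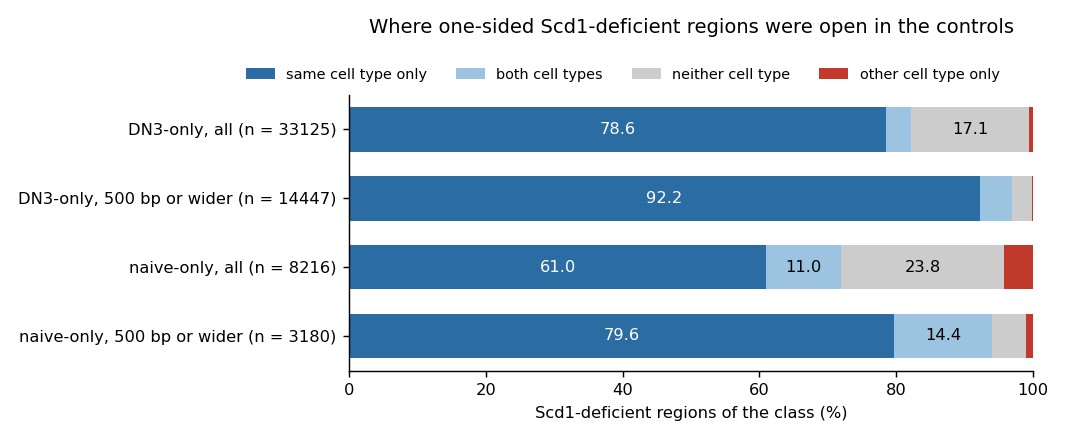
Horizontal bars split the DN3-only and naive-only regions of Scd1-deficient cells, in percent, by the control cell types that had an overlapping region, for all such regions and for those of at least 500 bp. The part that was one-sided the same way in controls was 78.6% and 92.2% for DN3-only and 61.0% and 79.6% for naive-only regions.

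The share also one-sided in controls followed the strength of the region. For DN3-only regions it rose from 45.4% at a −log10 q under 5 to 71.5%, 85.8%, 92.8% and 94.5% in the following ranges, which start at 5, 10, 20 and 50. For naive-only regions it was 35.6%, 53.2%, 66.6%, 76.1% and 82.5%. In each of these ranges the naive share was the lower one. With lists of equal length the shares over all strengths were closer, 79.6% for DN3-only and 76.4% for naive-only regions. With the look-up turned round, 71.2% of the control DN3-only and 66.6% of the control naive-only regions were one-sided the same way without Scd1, and at a −log10 q of 50 and over the shares were 81.9% and 82.4%. The background pileup, which moves with depth, was 3.653 fragments in the Scd1-deficient naive library and 5.116 in its control, against 4.474 and 4.721 in the DN3 libraries, and its part in this difference was not tested. Where a DN3-only region was open in both control cell types, the control naive region was weak, with a median −log10 q of 7.64 against 53.5 over that whole list. In the same way, the control DN3 regions over naive-only regions had a median of 7.74 against 33.8.

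**Figure D2:**
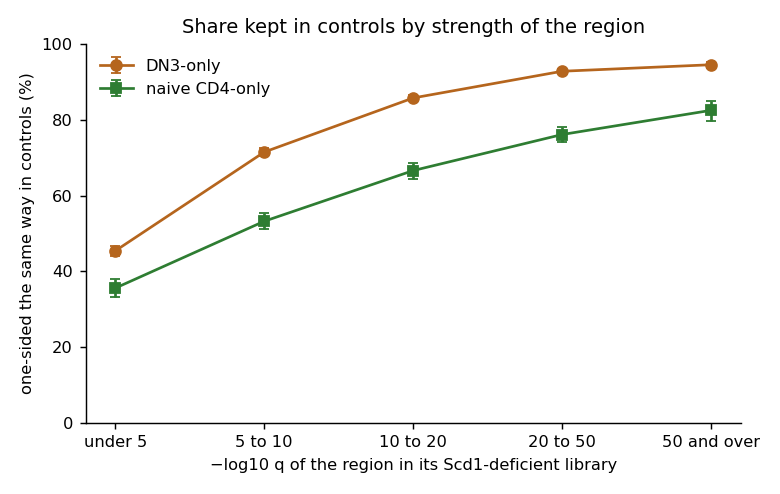
The share of DN3-only (circles) and naive-only (squares) Scd1-deficient regions that were one-sided the same way in controls is plotted in percent against the −log10 q of the region, in 5 ranges. Bars are Wilson 95% intervals, and both lines climb, from 45.4% to 94.5% and from 35.6% to 82.5%.

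The 10 strongest DN3-only regions of at least 500 bp were found at similar height in control DN3 cells. The strongest lay inside Micu2, a regulator of the mitochondrial calcium uniporter, from 57971924 to 57972701 on chromosome 14, and reached 424 fragments without Scd1 and 433 in control DN3 cells, with none called in either naive list. Others lay inside BC034090 (515 and 501 fragments), Acot12, an acyl-CoA thioesterase (390 and 412), Helz, Crispld2, Anxa2 and Bcat1, the cytosolic branched-chain aminotransferase. Regions outside genes included those nearest to Uaca and to Pik3r1, a regulatory subunit of PI3 kinase, at 246 and 303 kb. Of these 10 regions 8 were DN3-only in controls. The regions in Anxa2 and Bcat1 met weak control naive regions, with −log10 q of 6.29 and 9.05.

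Among the 10 strongest naive-only regions, the first lay 216 kb from Btg1, a gene of lymphocyte quiescence, from 96400443 to 96401390 on chromosome 10. It reached 450 fragments without Scd1 and 631 in control naive cells, and neither DN3 list had a region there. The region inside Inpp4b, a phosphoinositide phosphatase, reached 303 and 356 fragments. A weak control DN3 region, with a −log10 q of 2.20, met it, and the same held for the regions near Rcan3 (8.38), an inhibitor of calcineurin, and inside Trak1 (10.4). The other 6 lay in or near Pgpep1l, Ptk2 (focal adhesion kinase), Zfp281, 4933412E24Rik, Ms4a4a and Dph5, and were naive-only in controls, so that 7 of 10 were one-sided in both genotypes.

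Counted over the gene body and 10 kb on either side, surplus regions gathered at particular genes. The 10 genes with the most DN3-only over naive-only regions were Gse1, Arhgap26, Hivep3, Tshz2, Maml3, Frmd4a, Arid1b, Zfhx3, Ephb2 and Prkca. Maml3, a coactivator of Notch, had 29 DN3-only and 0 naive-only regions, 26 of which were DN3-only in controls. Ephb2, an ephrin receptor, had 25 and 0, of which 24 were. Naive-only regions were most in surplus at Inpp4b, with 0 DN3-only and 41 naive-only regions, and the controls had 1 and 39 there. Of the 41, 28 met a control naive region and no control DN3 region. Next came Bach2 and Foxp1, repressors that hold T cells in a naive state, with 23 and 26 naive-only against 7 and 14 DN3-only regions. Gramd3, Prkcq (protein kinase C theta of the T cell receptor pathway), Rapgef6, Sgms1 (sphingomyelin synthase), Foxo1, Lef1 and Akap13 followed. All 10 naive-surplus genes had a naive surplus in the controls as well. Long genes hold more regions, so these counts also follow gene length.

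Over all 21631 protein-coding genes, 1134 had at least 5 more DN3-only than naive-only regions without Scd1, of which 1129 had a DN3 surplus and 1 a naive surplus in controls. At least 2 more naive-only regions were found at 550 genes, of which 400 had a naive surplus and 55 a DN3 surplus in controls. The difference between these shares was not tested.

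At the ends of genes, 12547 genes had a region within 1 kb in both Scd1-deficient cell types, 1846 in DN3 cells alone (8.53%) and 127 in naive cells alone (0.587%). The controls had 10.3% and 0.624%. Of the 1846 genes, 1637 had a region in DN3 cells alone in the controls as well, which is 88.7% (87.15% to 90.04%). Of the 127, 75 did so in naive cells, 59.1% (50.4% to 67.2%). At 74 of the 1846 and 32 of the 127 genes the region did overlap one of the other cell type, which ended outside the 1 kb window. Actb and Stat5b were among the 32, and their naive calls are an effect of the window's edge. Without such genes 1585 of 1772 and 56 of 95 were one-sided the same way in both genotypes. The other genes named below as one-sided at a gene end had no counterpart in the other cell type.

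Of the 30 genes of Notch and pre-TCR signalling, 5 had a gene-end region in DN3 cells alone without Scd1 and none in naive cells alone. Among all 21631 protein-coding genes, 8.53% and 0.587% had such a call. Ptcra, with 221 fragments in Scd1-deficient DN3 cells, had no region at its ends in naive cells of either genotype. The same was true of Rag2, the partner of Rag1, with 115 fragments without Scd1 and 133 in the control, and of Dntt, the terminal transferase that adds N nucleotides, with 146 and 112. Outside the 1 kb window Dntt had matched regions without Scd1. The one starting at 41030742 on chromosome 19 had 270 fragments in DN3 and 360 in naive cells. Those starting at 41021995, 41038750 and 41053328 had 303, 334 and 79 in DN3 and 79, 99 and 70 in naive cells. Rag1 had DN3 regions at both ends. The promoter region given above had no naive counterpart, and the other end had 86 fragments in DN3 and 27 in naive cells without Scd1, against 125 and none in the controls. Heyl, a Notch target, reached 160 and 145 fragments in DN3 cells and had no gene-end region in naive cells. Of the 30 genes, 29 had the same gene-end call in both genotypes, 96.7%, close to the 95.8% of all 21631 protein-coding genes. Around them 98 of 272 regions were DN3-only and 25 naive-only, 36.0% and 9.19%, close to the 36.9% and 9.36% over regions around all protein-coding genes.

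Around the 18 progenitor factors 67 of 136 regions were DN3-only and 8 naive-only, 49.3% and 5.88%, against 36.9% and 9.36% around all protein-coding genes. Of the 67, 56 were DN3-only in controls, 83.6%, against 78.3% of the DN3-only regions around all genes. Erg, an ETS factor of early progenitors, had 16 DN3-only and 1 naive-only region without Scd1 and 18 and 1 in controls. Meis1, a homeobox cofactor of stem cells, had 10 and 0 in both genotypes. Kit, the receptor for stem cell factor, had 374 fragments at its gene end in DN3 cells and 23 in naive cells without Scd1, against 345 and none in the controls. Lmo2 and Gata2, factors of the stem and progenitor network, had gene-end regions in DN3 cells alone, with 87 and 88 fragments without Scd1 and 108 and 96 in controls. Around 16 genes of gamma-delta and innate-like T cells 82 of 153 regions were DN3-only and 14 naive-only, 53.6% and 9.15%. The naive-only share was thus close to that around all genes. Of the one-sided regions 85.4% were DN3-only (77.0% to 91.1%), against 79.8% around all genes. Zbtb16, which encodes PLZF, had 17 and 1 of them, and Blk, a Src family kinase, 8 and 0.

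Naive-only regions outnumbered DN3-only ones around genes of the naive state. Around 12 naive CD4 markers 11 regions were DN3-only and 35 naive-only, 10.8% and 34.3%, against 36.9% and 9.36% around all protein-coding genes. Of the 35, 24 were naive-only in controls, 68.6%, against 59.5% of the naive-only regions around all genes. Around 24 genes of homing and quiescence the counts were 48 and 101, 14.7% and 31.0%. Of the 101, 68 (67.3%) were naive-only in controls. Foxo1, which drives Il7r, had 2 DN3-only and 13 naive-only regions, and the controls had 1 and 10. Around 37 T cell receptor signalling genes there were 73 DN3-only and 139 naive-only regions, 14.3% and 27.1%. These included 0 and 12 at Prkcq, 3 and 11 at Ptprc, the phosphatase CD45, and 3 and 13 at Cblb, a ubiquitin ligase that restrains activation. Around 31 cytokine receptor genes there were 50 and 61 without Scd1, but 55 and 46 in controls, so that the larger count changed sides. Il6ra was part of this, with 0 DN3-only, 9 naive-only and 7 matched regions without Scd1 and 0, 4 and 10 in controls. Around all protein-coding genes the counts moved the same way, from 25998 and 5077 in controls to 23687 and 6005 without Scd1. Whether the change at cytokine receptors exceeded that general shift was not tested. The Gimap cluster, 8 neighbouring GTPase genes that share some regions, had 0 DN3-only and 9 naive-only of 30 regions. Of the 9, 6 (66.7%) were naive-only in controls.

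Factors of the T lineage were mixed. Around 25 of them 84 regions were DN3-only and 93 naive-only, 21.4% and 23.7%, against 36.9% and 9.36% around all genes. Of these, 52 and 71 were one-sided the same way in controls, 61.9% and 76.3%, against 78.3% and 59.5% around all genes. Lef1, which acts with Tcf7 in thymocytes and naive cells, had 2 DN3-only and 13 naive-only regions, and the controls had 1 and 14. Bcl11b, needed for T cell commitment, had 6 and 15, and the controls 5 and 11. Myb and Tcf12 leaned to DN3, with 10 and 0 and with 11 and 1. Gata3 differed between the genotypes, with 7 DN3-only, 3 naive-only and 5 matched regions without Scd1 and 1, 2 and 8 in controls.

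Around genes of lipid metabolism, where Scd1 itself acts, the one-sided shares were close to those around all genes. At Scd1 the region over the gene end reached 85 fragments in DN3 and 39 in naive cells labelled Scd1-deficient, and 124 and 50 in the controls, which does not check the genotype, since the deleted part is not given. Around 29 genes of fatty acid synthesis and desaturation 34.5% of regions were DN3-only and 8.19% naive-only. The shares were 32.6% and 5.43% around 26 genes of cholesterol synthesis and uptake, and 33.1% and 5.51% around 25 of fatty acid oxidation and storage. Of the 59 DN3-only regions of the first list, 47 were DN3-only in controls, 79.7%, against 78.3% around all genes. Acaca, an acetyl-CoA carboxylase, had 9 DN3-only and 1 naive-only region without Scd1 and 8 and 0 in controls. Fads2, the delta-6 desaturase, fell from 369 fragments at its gene end in DN3 cells to 30 in naive cells, and from 416 to 21 in controls.

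**Figure D3:**
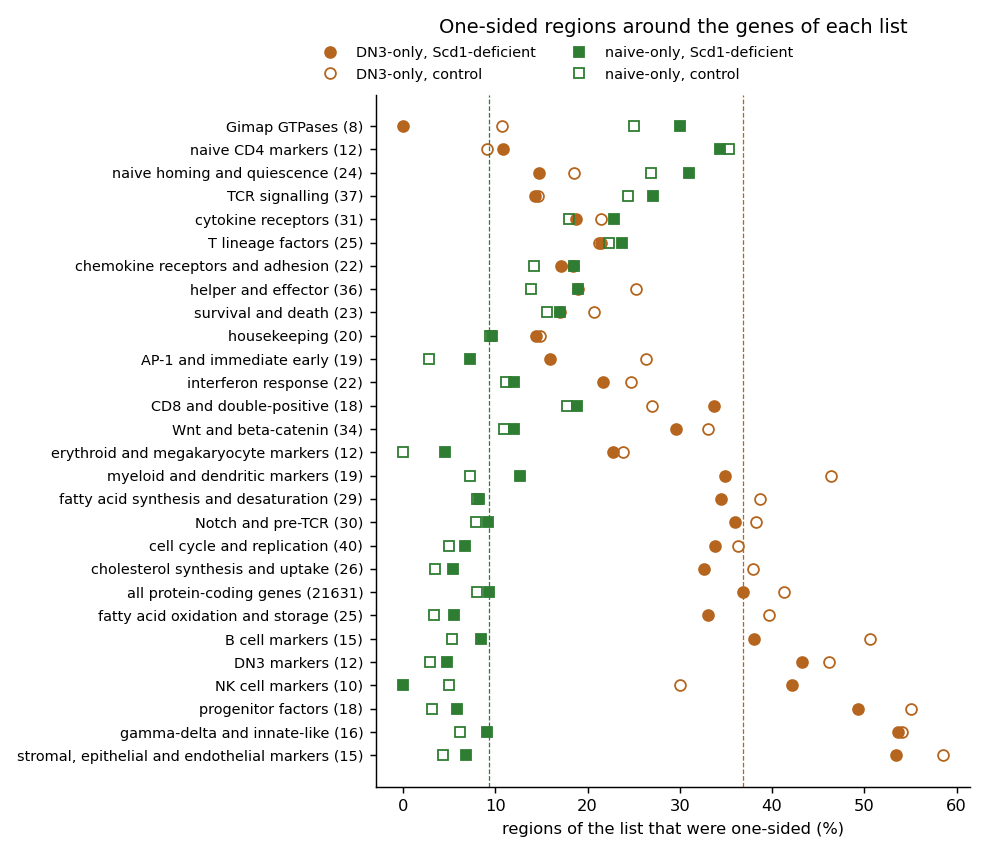
For each gene list (number of genes in brackets), points give the percent of its regions that were DN3-only (circles) and naive-only (squares), filled for Scd1-deficient and open for control cells, and dashed lines mark the 36.9% and 9.36% around all genes without Scd1. Gimap genes, naive markers, homing and T cell receptor lists have more naive-only than DN3-only regions in both genotypes, and the gamma-delta, stromal and progenitor lists have DN3-only shares of 53.6%, 53.4% and 49.3% without Scd1.

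At helper and effector loci, regions at the gene end were naive-only for 5 of 36 genes and DN3-only for none. Over all protein-coding genes these shares were 0.587% and 8.53%. Another 8 of the 36 genes had no gene-end region in either cell type. The 5 genes were Cd40lg, Foxp3, Il2, Tnfrsf4 and Gzmb, and the first 4 were naive-only in controls too. Cd40lg, the ligand through which T cells help B cells, reached 112 fragments without Scd1 and 161 at the same place in control naive cells. Tnfrsf4, the costimulatory receptor OX40, reached 127 and 170, and Foxp3, the factor of regulatory T cells, 25 and 27. Whether the Foxp3 region came from regulatory cells in the naive preparation was not tested. Gzmb, the protease granzyme B, had a region of 23 fragments in Scd1-deficient naive cells alone and of 24 fragments in control DN3 cells alone.

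Around 15 B cell markers 27 of 71 regions were DN3-only and 6 naive-only, 38.0% and 8.45%, and around 19 myeloid and dendritic markers 22 and 8 of 63, 34.9% and 12.7%, near the shares around all genes. Around 10 NK markers 8 and 0 of 19 were one-sided, and around 12 erythroid and megakaryocyte markers 5 and 1 of 22. Around 15 stromal, epithelial and endothelial markers 39 and 5 of 73 were, 53.4% and 6.85%, a DN3-only share above that of the progenitor factors. Gene-end regions, out of the 15, 19, 10, 12 and 15 genes, were found in Scd1-deficient DN3 cells at 8, 8, 6, 6 and 9 and in naive cells at 8, 6, 5, 4 and 5. In control DN3 cells they were found at 9, 8, 6, 6 and 10, and in control naive cells at 6, 5, 5, 4 and 4. The gene-end fragments of a list, each divided by its library's median, summed to 10.9 and 11.6 in the DN3 and 8.33 and 6.40 in the naive libraries for B cells, Scd1-deficient first. They summed to 16.0, 15.5, 12.1 and 18.2 for myeloid and dendritic cells, to 13.02, 11.99, 5.95 and 5.88 for NK cells, to 21.9, 22.7, 16.6 and 14.1 for erythroid cells and megakaryocytes, and to 14.8, 14.7, 7.33 and 5.11 for stromal and other tissue cells. Ms4a1 of B cells, Csf1r, Mpo and S100a8 of myeloid cells, Ncr1 of NK cells, the globins Hba-a1 and Hbb-b1, and Krt5, Pecam1 and Tek of tissue cells had no gene-end region in any library. Each of the 12 DN3 markers was covered at a gene end in both DN3 libraries, and each of the 12 naive markers in both naive libraries. In naive cells 9 of the DN3 markers were covered without Scd1 and 8 in controls. In DN3 cells 11 of the naive markers were covered in each genotype. Coverage alone is therefore a weak check of the labels.

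Matched regions were compared by the authors' fold enrichment, the pileup at the summit over the local background, divided by the median of its list. The log2 ratio of naive to DN3 is positive where the naive region was stronger. Without Scd1, 43081 naive regions were matched and their median log2 ratio was −0.18. At least 2-fold stronger in DN3 were 3544 (8.23%) and in naive cells 825 (1.91%), against 8.96% and 1.82% of 39609 in controls. With both lists divided by the median over matched regions in place of the whole list, the shares without Scd1 were 5.36% and 3.50%, so the split between the directions depends on the scaling.

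The ratio was similar in both genotypes. Across the 38145 regions matched in both, Pearson's r was 0.789 and Spearman's rank correlation 0.752, and 81.9% had the same sign. Regions of 1 library share its depth and base composition, so this describes the 4 libraries. The ratios differed by at least 1 log2 unit at 1.62% of these regions, 393 of them toward naive and 225 toward DN3 without Scd1. Of the 3544 DN3-stronger regions, 2175 were matched in controls, and 1514 of these were at least 2-fold DN3-stronger there, 69.6% (67.6% to 71.5%). Another 1351 had a control DN3 region and no control naive region. Of the 825 naive-stronger regions, 670 were matched in controls and 321 were at least 2-fold naive-stronger there, 47.9% (44.2% to 51.7%). With lists of equal length the DN3 and naive shares were 51.3% and 60.7%, and scaled by matched regions 63.2% and 57.6%. Which of the 2 shares was larger thus depends on the setting. On the same side of 0 in controls were 97.0% of the DN3-stronger and 97.5% of the naive-stronger regions matched there. Over all 38145 regions matched in both genotypes, 70.2% lay on the DN3 side and 29.8% on the naive side in controls. At least 2-fold DN3-stronger or naive-stronger in controls were 8.13% and 1.56% of them. A 2-fold difference in the opposite direction was found at 1 and 2 regions, in or near Igf2bp2, and Tbcd and Adgre5. At Tbcd 1 naive region lay over 2 DN3 regions in each genotype, and the ratio took the weak one without Scd1 and the strong one in controls.

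**Figure D4:**
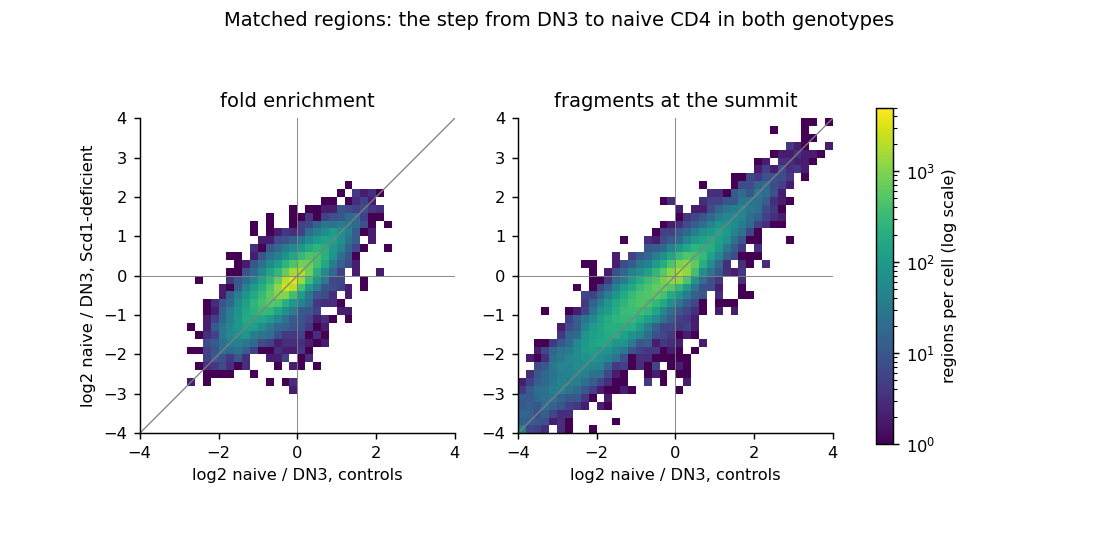
Each coloured cell counts, on a log scale, the matched regions with a given log2 ratio of naive to DN3 in controls (horizontal) and in Scd1-deficient cells (vertical), by fold enrichment on the left and by fragments at the summit on the right. Both clouds lie along the diagonal, with Pearson's r of 0.789 and 0.914 across 38145 regions.

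Fold enrichment and the number of fragments at the summit often gave opposite directions, since the fold divides by the local background. The signs differed at 13749 of 43081 matched regions, 31.9%. By summit fragments divided by the list median, 10095 regions were at least 2-fold stronger in DN3 and 2043 in naive cells, 23.4% and 4.74%, and by the median over matched regions 13.4% and 11.4%. Of the 10095 and 2043, 7614 and 1831 were matched in controls. There 6812 and 1433 of these differed at least 2-fold the same way, 89.5% and 78.3%, and 0 did so in the opposite direction. Over all regions matched in both genotypes, 26.4% were at least 2-fold stronger in control DN3 and 5.14% in control naive cells. Scaling by matched regions adds 0.49 to each log2 ratio of fragments without Scd1, and 0.20 to each log2 ratio of folds. The ratios below are scaled by the list median, and a change of sign under the other scaling is named.

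To compare all libraries at 1 place, overlapping regions of the 4 lists were merged, and each marker was read at its gene-end place of highest summed signal. At Ccr7, the chemokine receptor that guides naive cells to lymph nodes, the gene-end region reached 346 fragments in DN3 and 489 in naive cells without Scd1, and 381 and 741 in controls. Its local background was 25.3 in DN3 and 88.4 in naive cells without Scd1, and 29.0 and 149.5 in controls. The log2 ratio was therefore −1.53 by fold and 0.25 by fragments without Scd1, and −1.54 and 0.38 in controls. S1pr1, the receptor for exit from the thymus, went from 117 to 337 fragments without Scd1 and from 119 to 449 in controls. Its log2 ratio was −0.88 by fold and 1.27 by fragments. Zbtb7b, which encodes the CD4 lineage factor ThPOK, had 55 fragments in DN3 and 382 in naive cells at one end of the gene without Scd1, and 71 and 568 in controls. Its log2 ratio was 0.77 by fold and 2.54 by fragments without Scd1, and 0.82 and 2.42 in controls. Naive cells had the higher fragment counts at these 3 genes in both genotypes, with the lower fold at Ccr7 and S1pr1 and the higher fold at Zbtb7b.

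Il6ra (206 and 388 fragments in Scd1-deficient DN3 and naive cells), Cd5 (133 and 309), Klf2 (388 and 627) and Cd28 (263 and 337) had more scaled fragments and lower folds in naive cells of both genotypes. Cd4, which encodes the coreceptor of these cells, went from 148 to 237 fragments and was higher in naive cells by both measures. Il7r, the receptor for the survival cytokine IL-7, had a log2 ratio of fragments of 0.12 without Scd1 and −0.07 in controls, and the second is positive when scaled by matched regions. Of the 11 naive markers with a gene-end region in both cell types, 9 had more scaled fragments in naive cells without Scd1 and 8 in controls, and 10 and 11 did when scaled by matched regions. By fold 2 of 11, Cd4 and Zbtb7b, were higher in naive cells in each genotype. Ms4a4b, a membrane protein of resting T cells, had a gene-end region in naive cells alone, with 39 fragments without Scd1 and 105 in controls.

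Of the 8 DN3 markers with regions of both cell types at that place without Scd1, 3 had more scaled fragments in naive cells and 5 fewer. Cd24a, the heat stable antigen of immature thymocytes, had 411 fragments in DN3 and 91 in naive cells without Scd1 and 418 and 97 in controls. Its log2 ratio was −2.43 by fragments and −0.08 by fold, which turns positive when scaled by matched regions. Hes1, a target of Notch, had 270 and 154 fragments without Scd1 and 269 and 189 in controls, and Erg had 150 and 66, and 171 and 51. Notch3, a receptor and target of Notch signalling, had 149 and 97 fragments without Scd1 and 224 and 117 in controls, with a local background of 76.8 in Scd1-deficient DN3 and 15.8 in naive cells. Its log2 ratio was −0.87 by fragments and 1.33 by fold. Notch1 had 468 and 568 fragments without Scd1, and Dtx1, a regulator of Notch, 161 and 324. Dtx1 was higher in naive cells by both measures, with log2 ratios of 0.50 by fold and 0.76 by fragments. Notch1 was higher by fold, at 0.42, but nearly equal by scaled fragments, at 0.03. Il2ra, the CD25 by which DN3 cells were sorted, had 144 and 166 fragments without Scd1 and 109 and 239 in controls, and its log2 ratio of −0.05 by fragments turns positive when scaled by matched regions.

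**Figure D5:**
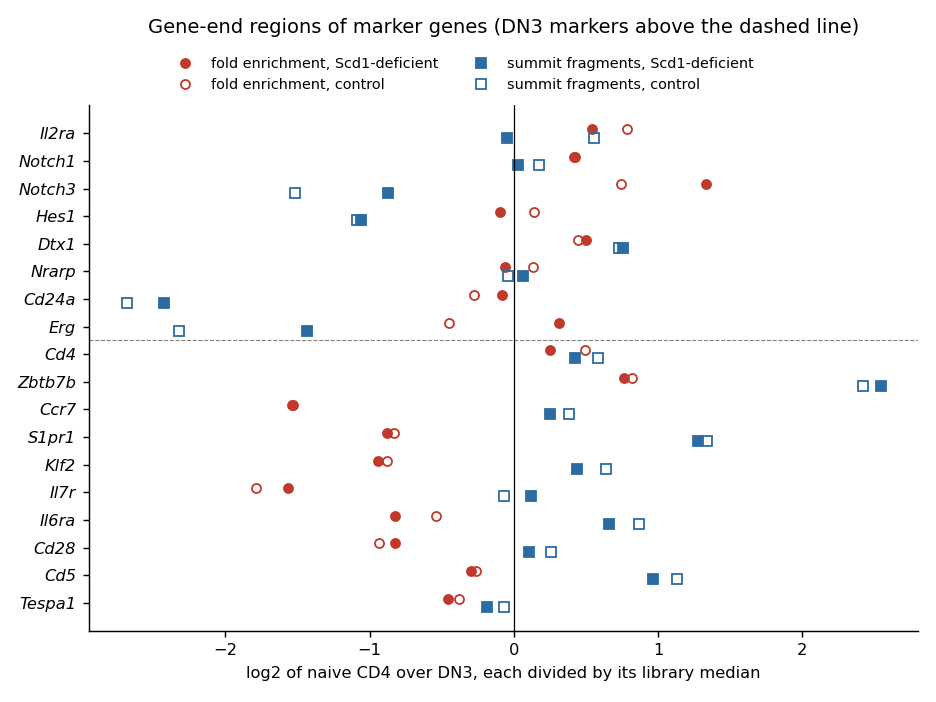
For 18 of the marker genes with regions of both Scd1-deficient cell types at 1 gene-end place, the horizontal axis gives the log2 ratio of naive to DN3 by fold enrichment (red circles) and by summit fragments (blue squares), each divided by its library median, filled for Scd1-deficient and open for control cells. At Ccr7 and S1pr1 the 2 measures lie on opposite sides of 0 in both genotypes, and at Zbtb7b and Cd4 both are above 0.

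The median over the matched regions of a list also depended on the measure. By fold it was 0.03 for DN3 markers, −0.62 for naive markers, −0.23 for progenitor factors and −0.67 for the Gimap genes. By fragments it was −0.65, 0.31, −0.86 and 0.60, against −0.18 by fold and −0.19 by fragments over matched regions around all genes. The controls gave −0.68, 0.58, −1.13 and 1.19 by fragments.

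The 10 matched regions with the largest fold ratio toward DN3 were in or near Pou2f1, Nsmce1, Sash1, Marveld1, Rsrc1, Sun3, Tarbp1, Ikzf1, Bid and Filip1l. The region inside Ikzf1, which encodes Ikaros, had 192 fragments in DN3 and 71 in naive cells without Scd1, and 193 and 102 in controls, with log2 ratios of −2.27 and −2.31. At Sash1, Marveld1 and Sun3 the naive region had 12, 15 and 16 fragments without Scd1, and the controls had no naive region. At Pou2f1, an octamer factor, the log2 ratio was −2.74 without Scd1 and −0.07 in controls, but the DN3 region there met 2 naive regions without Scd1, the other of which had 804 fragments against 581 in DN3. Bid, a proapoptotic protein, was split in the same way. Filip1l had 178 DN3 and 112 naive fragments without Scd1, and the strongest overlapping regions in controls had 152 and 655.

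Toward naive cells the 10 were in or near Arhgap5, Tmigd3, Igtp, E330021D16Rik, Adamts20, Wrap73, Naxd, Lad1, Bcl11b and Ms4a8a. Arhgap5, a GTPase activating protein, had 14 fragments in DN3 and 68 in naive cells without Scd1 and 17 and 97 in controls, with log2 ratios by fold of 2.08 and 1.96. A region 77.2 kb from Bcl11b had 16 and 113 fragments, and 25 and 168 in controls. Igtp, an interferon-induced GTPase, had 40 and 187 fragments without Scd1 and 58 and 206 in controls, with log2 ratios of 1.93 and 0.76. All 10 were chosen by their fold ratio without Scd1, so that direction was fixed by the choice. They were also higher in naive cells by fragments, and by both measures in controls. By fold, 97.5% of all naive-stronger regions matched in controls lay on the same side there.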

How the data were processed

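ATAC-seq was compared in 4 libraries, 1 each of Scd1-deficient and littermate control DN3 thymocytes and splenic naive CD4 T cells, grouped by their labels. The submitters' processing notes name Trimmomatic, BWA, MACS2 and the build mm10. Not given in the sources used here are versions, MACS2 settings, the handling of duplicates and any Tn5 shift. The authors deposited 1 peak list per sample. Each deposited score lies within 1 of 10 times the −log10 q. The deposited fold is the ratio of the summit pileup to that library's local background, each with 1 added, and the deposited −log10 p and −log10 q belong to that summit. All are the authors' values, each within 1 list, and −log10 q grows with depth.

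Read depth is unknown. Fragments at each summit and the local background were recovered from fold and −log10 p, whole within 0.05 for 100% of peaks. The median was 63 and 75 fragments in Scd1-deficient DN3 and naive cells and 69 and 103 in controls. Regions matched by at least 1 bp. Each matched naive region was set against the DN3 region sharing most bases. The 9 to 14 peaks per library on the Y chromosome were left out.

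Genes were 21631 protein-coding RefSeq genes of GRCm38.p6. A gene-end region lay within 1 kb of either end. The strand, planned for a start-site window, was given for only 17274 of them, so that window is an alternative. A list region lay in the gene or within 10 kb. The 27 lists hold 541 symbols, of which 539 matched. Members, lists and rules were chosen with earlier results of these data known. The rule for named genes takes the 10 strongest one-sided regions of at least 500 bp and the 10 matched regions of largest ratio each way, the 10 genes of largest surplus each way, the DN3 and naive markers, up to 4 members per list and direction, and regions that went the other way in controls. Ptcra, Rag1, Gimap4 and Il2 for the printed promoters, and other list members given as examples, were chosen after their values were seen. Shares carry Wilson 95% intervals. PCR duplicates may be counted, so intervals cover counting error only. A few genes and regions covered by these rules are not reported here. Marker values were read at merged gene-end places, a rule chosen after seeing the data. No test was run. The code for matching, ratios and the recovery of fragments was run on simulated data without noise in the fold, with ratios scaled by matched regions. There 1000 of 1000 regions raised 4-fold were found, which checks the code and not the accuracy on the real lists. Python 3.11.15, numpy 2.4.6, pandas 2.3.3, scipy 1.17.1 and matplotlib 3.10.9 were used. Alternatives were another overlap, a stricter −log10 q, lists of equal length, other scalings, one-to-one pairs and other gene windows. Summit fragments in place of fold, the start-site window, leaving out regions narrower than the narrowest control naive region and the count of gene-end regions without any counterpart were chosen after seeing the data.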

Additional observations from a re-analysis of the deposited data

Results flagged for a closer look

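Regions and a gene that went one way without Scd1 and the other way in controls are listed here with their values. The differences were not tested, and each rests on 1 library per group.

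At 3 matched regions the fold ratio was at least 2-fold in opposite directions. The log2 ratio of naive to DN3 was 1.36 without Scd1 and −1.01 in controls at Tbcd, and −1.09 and 1.30 at Igf2bp2. It was 1.01 and −1.09 at a region 62.2 kb from Adgre5. That region had 19 fragments in DN3 and 40 in naive cells without Scd1, and 28 and 16 in controls. At Tbcd the log2 fragment ratio was 0.32 and −2.28. The naive region there lay over 2 DN3 regions in each genotype. The ratio used the one sharing most bases, which was the weak one without Scd1 and the strong one in controls.

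The strongest DN3-only regions of at least 500 bp that were open in control naive cells alone lay by Slc30a7, Tmem45a2 and Ankrd29, with −log10 q of 28.5, 24.5 and 20.7. The control naive regions had 4.98, 5.65 and 13.6. In the other direction, naive-only regions open in control DN3 cells alone lay by Sorl1, Mrpl36 and Extl3, with 45.2, 18.7 and 14.9, and the control DN3 regions had 19.9, 31.6 and 9.86. In all there were 22 and 33 such regions of at least 500 bp, of 14447 and 3180.

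The gene-end region of Gzmb was called in naive cells alone without Scd1, with a −log10 q of 9.75, and in DN3 cells alone in controls, with 8.38.

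Outside the chromosomes compared, the Scd1-deficient naive list had 12 peaks on the Y chromosome against 9 in its control.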

How the results depend on the processing

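All values in this paragraph are for the Scd1-deficient step, in percent unless they count genes. With at least 50% of the shorter region shared the one-sided shares were 43.8 (DN3) and 16.6 (naive), and 77.5 and 59.3 of these were one-sided in controls. At a −log10 q of at least 10 the one-sided shares were 40.03 and 15.4, with 84.6 and 69.0 one-sided in controls. The 2-fold shares were 3.46 (DN3-stronger) and 1.21 (naive-stronger), with 64.2 and 43.9 also 2-fold in controls. With lists of equal length the one-sided shares were 27.8 and 27.7, with 79.6 and 76.4 one-sided in controls. The 2-fold shares were then 2.53 and 2.10, with 51.3 and 60.7 also 2-fold in controls, and 1016 and 440 genes had a gene-end region in DN3 or naive cells alone, against 1846 and 127. Matching is nearly one-to-one, so equal lists give nearly equal one-sided shares by construction. This setting therefore does not test the excess of DN3-only regions, which follows the lengths of the lists. Scaling by matched regions gave 2-fold shares of 5.36 and 3.50, with 63.2 and 57.6 in controls. One-to-one pairs gave 7.85 DN3-stronger, with 74.8 in controls. The following were chosen after seeing the data. Summit fragments gave 23.4 and 4.74, with 89.5 and 78.3 in controls, and scaled by matched regions 13.4 and 11.4, with 84.3 and 79.2. Without regions narrower than the narrowest control naive region the one-sided shares were 42.2 and 16.6, with 78.0 and 67.1 in controls. Within 1 kb of a start site 69 genes were naive-only. The DN3-only share of a list's one-sided regions, less that of all genes, changed sign for 2 of 27 lists with 50 kb around genes, at 0.033 percentage points for Notch and pre-TCR and 1.74 for myeloid and dendritic markers. It changed sign for 4 with equal lists, at −5.08 for cell cycle, −0.55 for fatty acid synthesis, −2.47 for B cell and −49.5 for erythroid markers, the last from 3 regions. The cause of these changes was not tested beyond the construction of each alternative. No paired analysis was possible because each group has 1 library. Read depth is unknown, and the naive lists differ in background pileup, 3.653 fragments without Scd1 and 5.116 in the control, so an absent region may be one that was not detectable.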
